A study of Rattus norvegicus with 4 samples.

Results

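The core apoptosis genes described here were Bax, Bak1, Bcl2, Bcl2l1, Mcl1, Bid, Apaf1 and Casp9, chosen by symbol as 8 of the 17445 rows listed in any of the 4 RNA-seq libraries of the series. Each symbol matched 1 row, and all 8 rows were listed in all 4 libraries and passed the filter on low values. RNA was taken from the hippocampus of Wistar rat pups on postnatal day 1, and the dams, 10 weeks old according to the series' labels, had received bisphenol A (BPA, a plastics monomer with estrogenic activity) at 5000 µg per kg of body weight, or vehicle, every day from gestation day 1 until they gave birth. The groups were control and BPA-exposed pups of each sex, with 1 library per group made from 3 pooled hippocampi, so that differences between pups within a group were not measured. The study asked whether prenatal BPA altered hippocampal genes, neuronal viability and behaviour differently in males and females.

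These genes encode the mitochondrial, or intrinsic, route to apoptosis, which removes surplus neurons during normal brain development. BAX and BAK open pores in the outer mitochondrial membrane, BCL-2, BCL-xL (from Bcl2l1) and MCL-1 bind and restrain them, and BID, once cut by caspase-8, activates them. Cytochrome c that escapes through the pores binds APAF1, which assembles into the apoptosome and activates caspase-9, and caspase-9 in turn cuts the executioner caspases. Much of this control acts on the proteins, so transcript levels describe the supply of each component and not its activity.

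The stretch of 250 bases before the transcription start is shown for 3 of these genes: Bak1 and Mcl1, whose BPA libraries lay on opposite sides of the controls, and Bcl2, the lowest of the 8 genes. The sequences are from RefSeq (assembly GRCr8), each written 5′ to 3′ on the gene's own strand and ending at the base before the start, with a GC box (GGGCGG) or TATA box (TATAAA) on either strand in capitals.
Bak1 (chr20:5110975-5111224, minus strand): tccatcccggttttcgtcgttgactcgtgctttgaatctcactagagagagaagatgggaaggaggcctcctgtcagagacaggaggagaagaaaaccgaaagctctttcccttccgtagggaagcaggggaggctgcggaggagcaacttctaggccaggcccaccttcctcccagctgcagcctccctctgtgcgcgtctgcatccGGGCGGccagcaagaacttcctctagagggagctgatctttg
Mcl1 (chr2:185907918-185908167, plus strand): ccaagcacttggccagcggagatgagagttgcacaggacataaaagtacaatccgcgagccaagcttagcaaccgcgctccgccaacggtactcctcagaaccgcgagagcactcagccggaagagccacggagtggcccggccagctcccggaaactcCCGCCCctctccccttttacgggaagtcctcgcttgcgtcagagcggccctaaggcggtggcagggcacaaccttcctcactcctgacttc
Bcl2 (chr13:23366901-23367150, minus strand): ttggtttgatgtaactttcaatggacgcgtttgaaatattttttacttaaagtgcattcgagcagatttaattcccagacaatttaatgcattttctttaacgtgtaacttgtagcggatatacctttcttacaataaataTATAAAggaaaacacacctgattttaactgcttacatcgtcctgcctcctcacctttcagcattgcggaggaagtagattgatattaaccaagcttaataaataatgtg
Bak1 and Mcl1 each held 1 GC box, on opposite strands, and no TATA box, with a GC content of 57.6% and 62%. The Bcl2 stretch held 1 TATA box and no GC box, and its GC content of 33.6% lay below the median of 51.2% over all 33469 stretches of this length in the table. Of those, 30.5% held a GC box and 12.9% a TATA box. Entries matched 7 of the 8 genes, and over the remainder Bid and Casp9 held 3 GC boxes each, Apaf1 held 2, and the 4 starts listed for Bcl2l1 held none. These matches are letters in a window and are not evidence that a factor binds there.

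Levels are given in FPKM, fragments per kilobase of transcript scaled to the same number of mapped fragments, which allows genes of different length to be compared. Every error quoted for a single library is a 95% interval from the number of fragments estimated behind the value, and it covers counting error only, not differences between pups. The estimated depth was 8720000 to 8800000 fragments per library. Over the 4 libraries, Bax was the highest of the 8 genes, at a mean of 61.3 FPKM ± 4.75 (SD, n = 4), followed by Bcl2l1 at 47.8 ± 4.07, Mcl1 at 35.1 ± 3.10, Bid at 21.6 ± 1.99 and Apaf1 at 18.3 ± 0.572. Casp9 at 9.17 ± 1.14 and Bak1 at 8.65 ± 1.17 came next, and Bcl2 was lowest at 2.09 ± 0.410. The ranges of neighbouring genes in this order did not overlap, except for those of Casp9 and Bak1, whose means were 1.06-fold apart. The widest step was the last, 4.13-fold from Bak1 down to Bcl2.

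**Figure D1:**
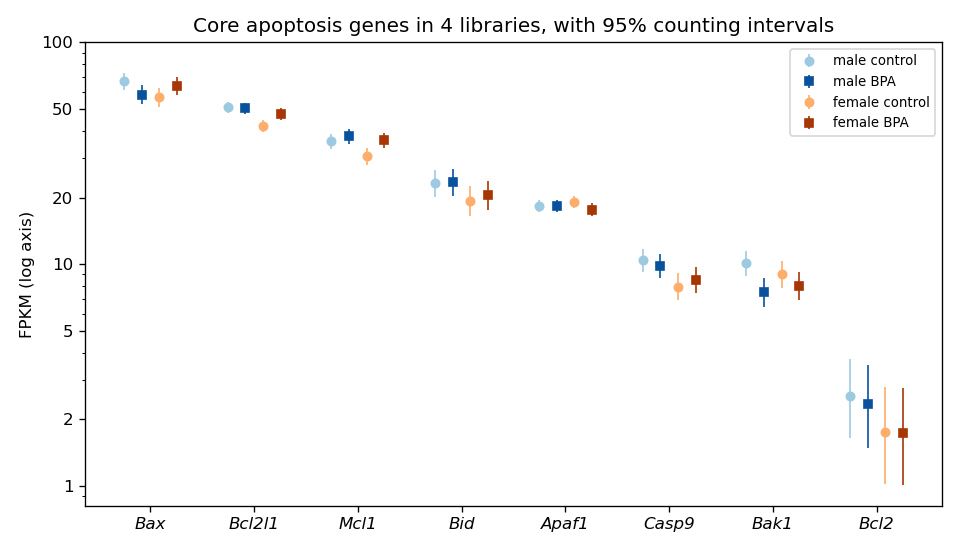
FPKM (log axis) of the 8 core apoptosis genes in each library, with points for the 4 libraries and bars for the 95% counting interval. The genes span Bax at 56.6 to 66.8 FPKM down to Bcl2 at 1.74 to 2.54 FPKM, and the libraries of one gene lie close together compared with the steps between most genes.

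The newborn hippocampus thus held transcripts of both effectors, with far more Bax than Bak1, and among the pro-survival genes mainly Bcl2l1 and Mcl1. The coefficient of variation of the 8 genes over the libraries ran from 3.12% for Apaf1 to 19.6% for Bcl2, with a median of 9.03%, beside a median of 11.6% over all 13542 rows tested and 10.5% over those with a gene ID. In bulk tissue, fewer cells of a type and less RNA per cell cannot be told apart.

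The first comparison asked whether prenatal BPA altered these genes when the sexes were combined, 2 BPA libraries against 2 control libraries. None of the 8 genes was called by limma at a Benjamini-Hochberg adjusted p under 0.05 over all 13542 rows, and none had an unadjusted p under 0.05, with or without sex as a covariate. The background was 0% of rows called and 4.7% at the unadjusted threshold, and with the covariate 0.0148% and 8.98%. The adjusted p of the members ran from 0.973 to 0.997. Their median difference, BPA minus control on log2(FPKM + 1), was −0.01, beside −0.02 over all rows. The libraries of the treatments did not overlap for 3 of the 8 genes (Mcl1 higher with BPA, Bak1 and Apaf1 lower), a share close to the 33.6% of all rows for which this held (13.8% higher and 19.9% lower). With 1 library left out, which leaves 3 to separate, the count was 7 without male control (67.8% of all rows), 4 without male BPA (67.9%), 7 without female control (67.4%) and 4 without female BPA (63.3%).

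Among the effectors, Bak1 showed the largest difference of the 8 genes. Its level was 10.1 FPKM without BPA and 7.47 with it in males, and 9 without and 8 with it in females, from an estimated 238, 175, 210 and 187 fragments. Both BPA libraries lay below both control libraries. The BPA to control ratio was 0.739 in males (95% counting interval 0.604 to 0.902) and 0.889 in females (0.726 to 1.09), so the interval excluded 1 only in males. The combined difference was −0.27 on the log2(FPKM + 1) scale (SE 0.139, limma adjusted p 0.973), with a 95% interval of −0.60 to 0.06.

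Bax, the more abundant effector, differed in opposite directions in the sexes. Its level was 66.8 FPKM without BPA and 58.2 with it in males, and 56.6 without and 63.6 with it in females. The highest value was therefore in male control and the lowest in female control, with the BPA libraries between them. The BPA to control ratio was 0.871 in males (0.761 to 0.996) and 1.12 in females (0.979 to 1.29), and the combined difference was −0.02 (SE 0.119, limma adjusted p 0.994). This combined value changed sign, to 0.10 without the male control library and to 0.05 without the male BPA library.

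Of the pro-survival genes, Mcl1, which encodes a short-lived protein, was measured at 35.9 FPKM without BPA and 37.8 with it in males, and 30.6 without and 36.2 with it in females. Both BPA libraries were above both controls, by a wider margin in females. The ratio was 1.05 in males (0.945 to 1.17) and 1.18 in females (1.05 to 1.33), and the combined difference was 0.15 (SE 0.117, limma adjusted p 0.973, 95% interval −0.13 to 0.43). It was 0.04 without the female control library and 0.26 without the male control library.

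Bcl2l1, whose long form BCL-xL protects maturing neurons, stood at 51.0 FPKM without BPA and 50.6 with it in males, and 42.1 without and 47.7 with it in females. The female control library was the lowest, and the male libraries were nearly equal. The ratio was 0.992 in males (0.914 to 1.08) and 1.13 in females (1.04 to 1.24), and the combined difference of 0.08 (SE 0.123, limma adjusted p 0.983) became −0.05 without the female control library. The long and short forms of Bcl2l1, which act in opposite directions, share this row and could not be told apart.

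Bcl2 was measured at 2.54 FPKM without BPA and 2.34 with it in males, and 1.75 without and 1.74 with it in females. These values rest on an estimated 25, 23, 17 and 17 fragments, so the intervals were wide, for example 1.64 to 3.75 FPKM in male control. The BPA to control ratio was 0.921 in males (0.4996 to 1.69) and 0.994 in females (0.477 to 2.07), so that changes within these bounds were not detectable at this depth.

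Bid, the link from the death receptors to mitochondria, was measured at 23.2 FPKM without BPA and 23.4 with it in males, and 19.4 without and 20.5 with it in females. The treatments overlapped, and the combined difference was 0.05 (SE 0.136, limma adjusted p 0.988). Apaf1, the apoptosome scaffold, was the steadiest gene, at 18.4, 18.3, 19.0 and 17.6 FPKM in the same order. Although both BPA libraries lay below both controls, the male libraries differed by less than their counting error, and the combined difference was −0.05 (SE 0.111, limma adjusted p 0.988). Scaling the libraries to the same upper quartile ended this separation. Casp9, the initiator caspase, was measured at 10.4 FPKM without BPA and 9.81 with it in males, and 7.94 without and 8.51 with it in females. Its BPA libraries lay between the control libraries, and the combined difference was 0.01 (SE 0.168, limma adjusted p 0.997).

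Within a sex there was 1 library on each side, so the differences were described by size only. None of the 8 genes differed by more than 0.5 on the log2 scale in males or in females, where 7.2% and 9.96% of all rows did, and none by more than 1, where 1.69% and 2.16% did. The largest absolute difference was 0.39 in males, for Bak1, and 0.23 in females, for Mcl1. The counting interval of the ratio excluded 1 for 2 genes in males, Bax and Bak1, both lower with BPA, and for 2 genes in females, Bcl2l1 and Mcl1, both higher with BPA. Over all rows the interval excluded 1 for 28.1% in males and 37% in females, so the members' shares were no higher than the background. The direction was the same in both sexes for 5 genes and opposite for 3, namely Bax, Bcl2l1 and Casp9. The share of all rows with opposite directions was not computed, so this count has no background. The signs of the 8 genes depended on scaling where a value was near 0. The male Bcl2l1 value was above 0 under quantile (0.001723) and upper-quartile scaling (0.004686), the female Bcl2 value was above 0 under quantile scaling (0.1225), and the male Apaf1 value was above 0 under upper-quartile scaling (0.01307). Whether the BPA difference itself differs between the sexes could not be tested with 1 library per group.

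**Figure D2:**
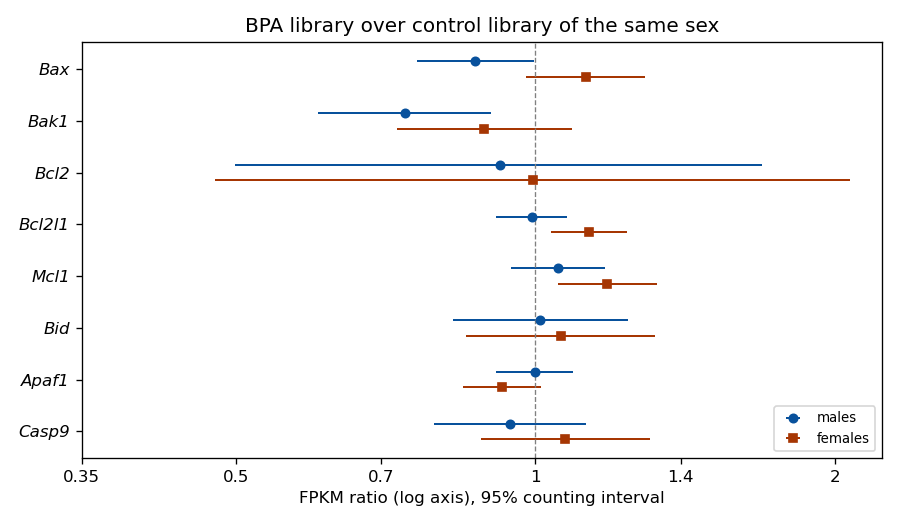
Ratio of FPKM in the BPA library to the control library of the same sex for each gene (log axis), with 95% counting intervals and a dashed line at 1. Only Bax and Bak1 in males (0.871 and 0.739) and Bcl2l1 and Mcl1 in females (1.13 and 1.18) have intervals that leave out 1.

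The balance between effectors and pro-survival genes within a library is a common summary of this route. The Bax to Bcl2 ratio was 26.3 without BPA (95% counting interval 17.6 to 41.1) and 24.9 with it (16.3 to 39.7) in males, and 32.4 without (19.9 to 56.1) and 36.6 with it (22.6 to 63.3) in females. The female libraries were above the male ones, but all 4 intervals overlapped. An exact two-sided permutation test gave p = 1 for BPA against control and p = 0.333 for females against males, which is the smallest p that 2 libraries against 2 allow.

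The other ratios were chosen after the values had been seen and carry no test. Bak1 to Mcl1 was 0.282 without BPA (0.242 to 0.328) and 0.198 with it (0.167 to 0.234) in males, and 0.294 without (0.250 to 0.345) and 0.221 with it (0.187 to 0.261) in females. In males the counting intervals of control and BPA did not overlap, whereas in females they did. Bax to Mcl1 was also lower in both BPA libraries, at 1.86 in male control (1.65 to 2.10) and 1.54 in male BPA (1.36 to 1.74). It was 1.85 in female control (1.62 to 2.11) and 1.76 in female BPA (1.56 to 1.99). The counting intervals of control and BPA overlapped in both sexes for this ratio. The summed effectors (Bax and Bak1) over the summed pro-survival genes (Bcl2, Bcl2l1 and Mcl1) gave 0.861 without BPA and 0.724 with it in males, and 0.881 without and 0.837 with it in females. Bax to Bcl2l1, at 1.31, 1.151, 1.34 and 1.33 in the same order, and Apaf1 to Casp9, at 1.76, 1.87, 2.40 and 2.07, overlapped between treatments.

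**Figure D3:**
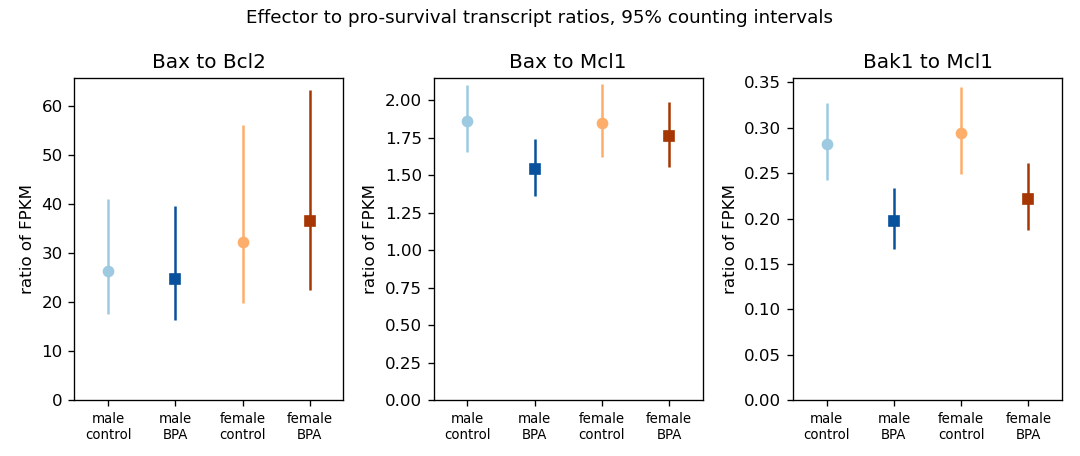
Ratios of FPKM between an effector and a pro-survival gene in each library (linear axes from 0), with 95% counting intervals. Bax to Bcl2 is 24.9 to 36.6 with wide overlapping intervals, while Bax to Mcl1 and Bak1 to Mcl1 are lower in each BPA library than in the control library of the same sex. The ratios to Mcl1 were chosen after the values had been seen and carry no test.

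The second comparison asked whether the sexes differed, 2 female libraries against 2 male libraries. None of the 8 genes was called by limma, where 0.00738% of rows were called, and none had an unadjusted p under 0.05, a threshold passed by 10.6% of rows. With treatment as a covariate the members again gave no call at either threshold, beside 0.406% and 14.3% of rows. Both female libraries were below both male libraries for 4 of the 8 genes (Bcl2, Bcl2l1, Bid and Casp9) and none was above, where 42.3% of all rows did not overlap (22.5% below and 19.8% above). With 1 library left out the count was 6 without male control (67.2% of all rows), 6 without male BPA (69.3%), 5 without female control (74.2%) and 7 without female BPA (73.1%). The female minus male difference was −0.33 for Bcl2 (SE 0.212, limma adjusted p 0.625), −0.27 for Casp9 (SE 0.128, adjusted p 0.518), −0.21 for Bid (SE 0.0939, adjusted p 0.490) and −0.18 for Bcl2l1 (SE 0.0893, adjusted p 0.541). The median over the 8 genes was −0.16, beside −0.01 over all rows.

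The sexes were also compared within each treatment. The female control library held the lowest value of 5 genes, Bax, Bcl2l1, Mcl1, Bid and Casp9. The share of all rows that were lowest in this library was not computed, so this count has no background. The female to male ratio between controls was 0.763 for Casp9 (0.633 to 0.918), 0.827 for Bcl2l1 (0.758 to 0.901), 0.847 for Bax (0.739 to 0.970) and 0.854 for Mcl1 (0.761 to 0.958). Those 4 of the 8 counting intervals excluded 1, beside 36.9% of all rows, and between the BPA libraries none of the 8 did, beside 36.2%. A test of the difference between these 2 sets of ratios was not possible with 1 library per group.

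**Figure D4:**
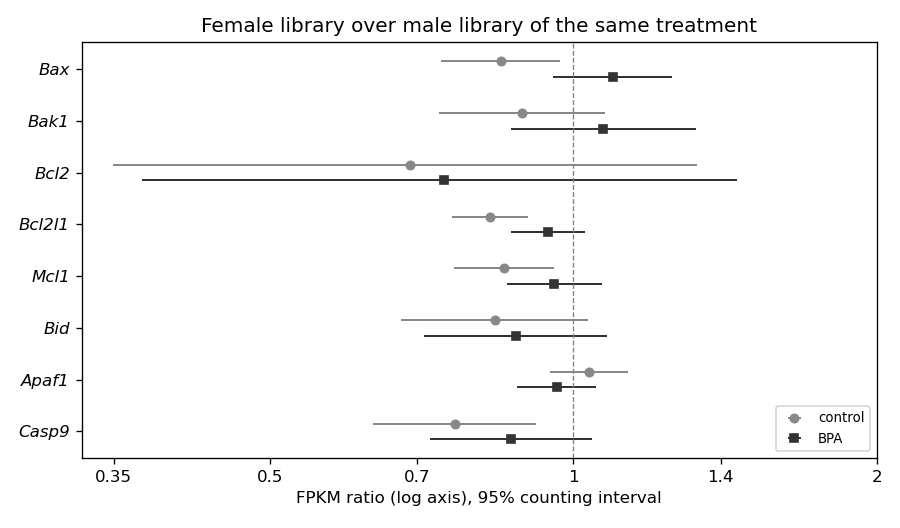
Ratio of FPKM in the female library to the male library of the same treatment (log axis), with 95% counting intervals and a dashed line at 1. Between controls Bax, Bcl2l1, Mcl1 and Casp9 lie below 1 with intervals that leave it out, and between BPA libraries every interval includes 1.

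The tissue label was checked against defining markers, and markers of other cells were set beside these values. Rbfox3, the gene of the neuronal marker NeuN, was at 34.7 to 37.7 FPKM, Neurod6 at 135 to 161 and the dentate gyrus marker Prox1 at 7.61 to 12.8. The summed level of 8 meningeal and vessel wall markers was 97.7 FPKM without BPA and 93.9 with it in males, and 366 without and 77.1 with it in females. Between the female libraries 8 of 8 differed by more than 0.5 on the log2 scale, beside 9.96% of all rows. Between the male libraries 3 of 8 did (Col1a1, Col3a1 and Lum, all lower with BPA), beside 7.2%. The female control library thus stood apart in these markers. It is also the library in which 5 of the 8 apoptosis genes were lowest, a count without a background over all rows. The 7 choroid plexus markers summed to 266 and 707 FPKM in the male libraries and 9.49 and 45.6 in the female ones, control first. Ttr made up most of the sum except in female control, where it was at 3.96 FPKM. The sum of 7 cycling cell markers was 49.6 and 52.1 FPKM in the controls and 40.4 and 41.9 in the BPA libraries, and that of 8 radial glia and astrocyte markers was 1328 and 1326 against 1184 and 1219, males first. In 5 of the 7 and 6 of the 8, respectively, both BPA libraries were below both controls, as for Bak1, Apaf1 and 19.9% of all rows. The same held for 3 of 7 interneuron, 2 of 5 hippocampal excitatory neuron, 2 of 5 endothelial and 3 of 8 meningeal markers. It held for 0 of 8 neuronal ones. The 8 neuronal markers, at 2869 to 3220 FPKM, the 8 microglial ones, at 40.3 to 51.6, and the 5 hippocampal excitatory neuron ones, at 225 to 296, varied over a narrower range than the meningeal ones. The remaining marker sums were 207 to 246 FPKM for interneurons, 94.0 to 136 for the oligodendrocyte lineage, 83.6 to 101 for endothelium, 57.7 to 72.7 for thalamus or hypothalamus and 3.57 to 4.25 for red blood cells. Calb2, at 37.5 to 46.9 FPKM, counts in both the interneuron and the thalamus or hypothalamus sums and is most of the latter. The part of tissue composition in the member values was not tested.

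The other genes of the route were read from lists of 55 symbols. Of these, 53 were listed and 43 passed the filter. The 10 listed genes that did not, among them the death receptor ligand Faslg, its receptor Fas and the initiator caspase Casp8, had means under 1 FPKM. No pathway gene was called by limma for BPA against control, and 2 of the 43 had an unadjusted p under 0.05, close to the 4.7% of all rows. In 7 both BPA libraries were above both controls and in 7 below, where 13.8% and 19.9% of all rows were. The median difference over the 43 genes was −0.01.

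Mdm2, which encodes a ubiquitin ligase, was at 16.4 FPKM in the control and 20.3 in the BPA library of males, and at 16.1 and 22.02 in those of females, a difference of 0.36 (SE 0.114, limma unadjusted p 0.0176, adjusted p 0.973). Aifm1, which encodes a mitochondrial flavoprotein and was chosen after its values were seen, was at 11.9 and 9.58 FPKM in males and at 11.96 and 9.11 in females, control first, a difference of −0.32 (SE 0.125, limma unadjusted p 0.0388, adjusted p 0.973). Neither passed the correction over all rows. Dffb, the caspase-activated DNase, was higher in BPA in both sexes, at 4.04 and 4.90 FPKM in males and 3.33 and 5.43 in females, with a combined difference of 0.40. Tnfrsf1a, a TNF receptor, was lower, at 7.53 and 6.18 FPKM in males and 7.64 and 5.29 in females, and so was its adaptor Tradd, at 1.43 and 0.80 and at 1.27 and 0.81. Tradd rested on an estimated 16, 9, 14 and 9 fragments, and the counting interval of its ratio included 1 in both sexes. For Dffb and Tnfrsf1a the interval included 1 in males (0.876 to 1.69 and 0.634 to 1.06) and excluded it in females. Casp6 stood at 1.98 and 2.2 FPKM in males and at 2.76 and 0.96 in females, control first, and the sexes overlapped.

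Casp2, an initiator caspase, ran from 10.7 to 14.4 FPKM, above the 7.94 to 10.4 FPKM of Casp9. Among the BCL-2 relatives, the effector-like Bok ran from 21.96 to 29.6 FPKM and the pro-survival Bcl2l2 from 11.3 to 13.4, so that both were above Bcl2. Cycs, which encodes cytochrome c, ran from 92.9 to 117 FPKM, and the outer membrane channel gene Vdac3 from 140 to 168. Bnip3 was at 44.3 to 53.01 FPKM and Bnip3l at 43.9 to 52.99, both BH3-type genes of mitophagy, while the inhibitors of apoptosis Birc6 and Birc2 were at 14.4 to 18.1 and 13.9 to 16.5. The death receptor gene Tnfrsf21 was at 29.5 to 34.8 FPKM and Ei24 at 45.0 to 53.5.

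For the sexes, 0 pathway genes were called by limma and 5 had an unadjusted p under 0.05, as did 10.6% of all rows. Of the 43, 11 were higher and 9 lower in both female libraries, where 19.8% and 22.5% of all rows were. The smallest p was that of Bbc3, named after its values were seen, which encodes the BH3-only protein PUMA. It was at 18.7 FPKM without BPA and 19.4 with it in males, and 11.8 without and 12.2 with it in females, a female minus male difference of −0.62 (SE 0.104, limma unadjusted p 0.000652, adjusted p 0.179). The sexes were therefore well apart for Bbc3 and the treatments were not, but the adjusted p did not pass.

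**Figure D5:**
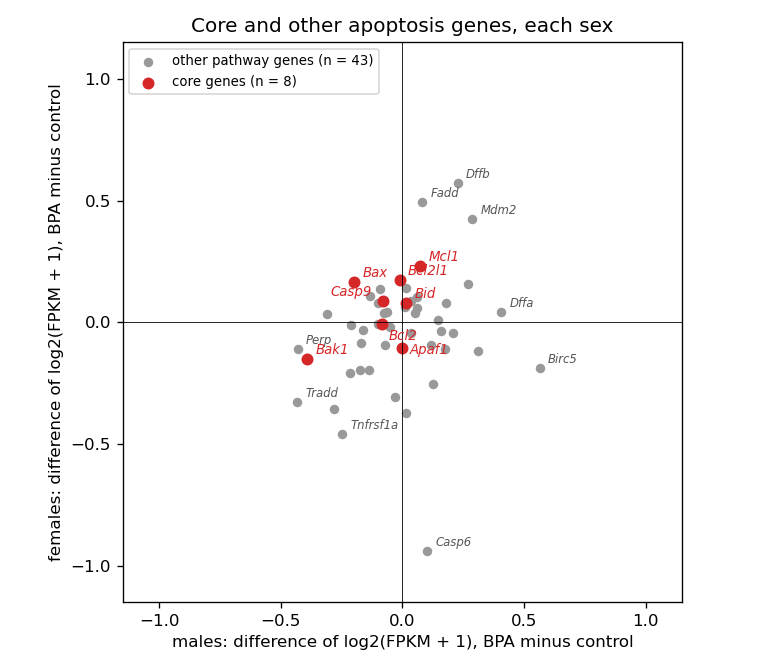
Difference of log2(FPKM + 1), BPA minus control, in females (vertical axis) against males (horizontal axis) for the 8 core genes in red and the 43 other pathway genes in grey. The core genes lie within 0.39 of zero on both axes, with Bak1 lowest in males and Mcl1 highest in females, while Casp6, Birc5 and Dffb lie past 0.5 on one axis.

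The row whose 4 values on log2(FPKM + 1) lay nearest to each member was found over the 4 libraries, by Euclidean distance. It was Sf3b5 for Bax (distance 0.0870), Manea for Bak1 (0.0889), Plcd3 for Bcl2 (0.0553), Use1 for Bcl2l1 (0.0537), Eif4ebp2 for Mcl1 (0.0823), Paqr3 for Bid (0.0509), Tmem184c for Apaf1 (0.0192) and Sufu for Casp9 (0.106). No member was the nearest row of another. With 4 libraries, such likeness describes level and pattern in these pools only.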

How the data were processed

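RNA-seq was made from 4 pooled libraries, 1 per sex and treatment. The authors deposited 1 FPKM value per gene and library, already normalised for depth and transcript length. The submitters' processing notes name HISAT 0.1.6, Bowtie2 2.2.5, RSEM and the genome build rn6. BPA was dissolved in ethanol and diluted in corn oil, and was given into the stomach. For the annotation and strandedness, the sources used here give nothing.

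The deposited files were joined on gene, which gave 17445 rows, of which 16375 were in all 4 libraries. Fold changes were computed on log2(FPKM + 1), a scale that understates changes of low genes, and the filter on low values (mean FPKM of 1 or more) left 13542 rows. Treatments, and separately sexes, were compared as 2 libraries against 2 with limma 3.58.1 (R 4.3.3), using a trended eBayes fit and no covariate, two-sided, with Benjamini-Hochberg adjustment over all rows tested and a threshold of 0.05. Each library was a pool, and no group held 2 pools, so the spread between like pools was not measured. The 2 libraries on a side differed in sex, or in treatment when the sexes were compared. The p-values rest on the spread within a side, which includes that difference when no covariate is used. Within a sex no test was made. The fit was tested on simulated data.

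Depth was estimated from rows of 300 to 1500 bases by finding the total that turns low values into whole fragments. Within a tolerance of 0.15 fragments, 94.4% to 98.5% of 742 to 792 low values per library were whole. Counting intervals (95%) were exact Poisson for levels and exact binomial (Clopper-Pearson) for ratios, and they cover counting error only.

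The 8 genes, the pathway lists and the marker lists were chosen with earlier results of these data known. The text names the 8 genes, the 2 highest genes of each pathway list, the 5 pathway genes with the largest combined difference, the nearest row to each member and leading markers. Some genes that this rule names are not reported here. Aifm1 and Bbc3, outside this rule, are said to have been chosen after their values were seen. Fas, Faslg, Casp8 and Birc5 are also outside it and carry no such statement. Alternatives were quantile and upper-quartile scaling, a pseudocount of 0.1, no filter, a mean of at least 5 FPKM, sums with new gene models of the same protein, a covariate, and leaving out each library. Tables and figures were made in Python 3.11.15 (pandas 2.3.3, numpy 2.4.6), with matplotlib 3.10.9 for plots and scipy 1.17.1 for intervals.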

Additional observations from a re-analysis of the deposited data

Results flagged for a closer look

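For 3 of the 8 genes the single male pair and the single female pair of libraries differed in opposite directions, BPA minus control on log2(FPKM + 1). The share of all rows with opposite directions was not computed, so whether 3 of 8 is unusual is not known. Bax differed by −0.197 in males and 0.165 in females. Bcl2l1 differed by −0.0112 in males and 0.175 in females. The male value of Bcl2l1 was 0.001723 under quantile and 0.004686 under upper-quartile scaling, and so no longer opposite. Casp9 differed by −0.0779 in males and 0.0892 in females. The difference between the sexes was not tested, since each group held 1 library. The counting interval of the ratio excluded 1 for Bax in males and for Bcl2l1 in females, and included it for Casp9 in both sexes.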

How the results depend on the processing

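The number of the 8 genes called was 0 in every alternative run, for treatment and for sex, and none passed 0.5 on the log2 scale within a sex under any scaling. Over all rows, the count called for BPA against control was 0, and it was 2 with sex as a covariate and 0 to 3 when each library was left out (1 without male BPA, 3 without female control), while 637 rows and 2 pathway genes had an unadjusted p under 0.05. Genes whose treatments did not overlap numbered 3, and 4 to 7 with each library left out (an alternative chosen after seeing the data), where 63.3% to 67.9% of all rows did not overlap. For the sexes the count was 4, and 5 to 7 in the same way, beside 67.2% to 74.2% of all rows. Of the alternative combined differences, 77 kept their direction and 10 reversed. Bcl2 reversed to 0.0298 under quantile normalisation. With each library left out, the difference ranged from −0.1334 to 0.102 for Bax, −0.2267 to 0.1376 for Bcl2, −0.05231 to 0.2161 for Bcl2l1, −0.07605 to 0.1708 for Bid and −0.1704 to 0.1816 for Casp9, so that these 5 reversed. The reversals came without male control (Bax, Bcl2), male BPA (Bax, Bid, Casp9), female control (Bcl2l1, Bid, Casp9) or female BPA (Bcl2). The differences of Bak1, Mcl1 and Apaf1 kept their direction throughout, though their size moved with each library left out. They ranged from −0.3476 to −0.1958 for Bak1, 0.04229 to 0.2635 for Mcl1 and −0.07958 to −0.02714 for Apaf1. Within a sex, the male values of Bcl2l1 (quantile and upper-quartile scaling) and Apaf1 (upper-quartile) and the female value of Bcl2 (quantile), all within counting error, changed sign. The cause was not tested. A mean of at least 5 FPKM leaves out Bcl2. No new gene model shared a member's protein, so sums changed no member. No paired analysis was possible because the labels give no replicate numbers, but the fit with sex as a covariate compares the treatments within sex. A library left alone on its side was assumed to vary like the others. Depth limits Bcl2 most, at an estimated 17 to 25 fragments per library.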
